A study of Schmidtea mediterranea with 16 samples.

Results

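The effect of irradiation on each transcript was compared between atm(RNAi) and unc-22(RNAi) X1 cells of the planarian Schmidtea mediterranea. The quantity is an interaction, the irradiation effect under atm(RNAi) minus the irradiation effect under unc-22(RNAi), on the log2 scale. A positive value means that irradiation lowered a transcript less, or raised it more, under atm(RNAi) than under unc-22(RNAi), and a negative value means the opposite. The contrast uses all 26833 genes of the deposited count matrix and all 16 libraries, and 17843 genes had enough reads to be tested.

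Planarians keep a large pool of dividing stem cells, the neoblasts, which replace all other cell types and are lost after a high dose of radiation. X1 cells are a flow cytometry gate of cells with a high DNA content and consist mostly of neoblasts in the cycle. ATM is a protein kinase that is activated by breaks in both strands of DNA and phosphorylates proteins that halt the cell cycle, start repair or, in mammals through p53, lead to cell death. The question of the design is which transcripts respond to radiation in a way that depends on atm.

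Knockdown of atm was set against RNAi of unc-22, a nematode muscle gene that is widely used as the control target in planarian RNAi. Sorted X1 cells were taken from irradiated and unirradiated animals under atm(RNAi) and from irradiated and unirradiated animals under unc-22(RNAi), and polyadenylated RNA was sequenced in 4 libraries for each of these groups. Irradiated animals received 2000 rads and cells were collected 1 day later. The labels do not give the strain, the age, the number of animals behind a library or whether replicates came from separate sorts, so p values measure only the spread between these libraries. Gene identifiers are not paired with gene names in the sources used here. The level of the atm transcript, the defining markers of X1 cells and lists of DNA damage and cell cycle genes were therefore not analysed here, and genes are named by identifier, with no known role to add.

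Counted gene reads per library lay between 6.99 and 26.5 M (M, mega). The group means were 19.5 M for irradiated atm(RNAi) libraries and 21.0 M for unirradiated atm(RNAi) libraries, and 11.3 M for irradiated unc-22(RNAi) libraries and 21.6 M for unirradiated unc-22(RNAi) libraries. The share of unmapped reads averaged 39.7% ± 2.86, 30.6% ± 5.43, 61.4% ± 8.85 and 38.2% ± 6.38 (SD, n = 4) in these groups in the same order. The difference between the irradiation effects was 8.78 M for counted reads and -13.98 percentage points for unmapped reads, with exact two-sided permutation p values of 0.0465 and 0.186. After Benjamini-Hochberg adjustment over 3 library measures these permutation p values were 0.129 and 0.186. Irradiated atm(RNAi) replicate 1 stood apart from the other 3 libraries of its group in the genes of the interaction, with values given beside those results.

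Irradiation changed transcripts less under atm(RNAi) than under unc-22(RNAi) in nearly every case where the interaction could be called. It was called for 638 genes, 3.58% of those tested, by the quasi-likelihood test of edgeR, with a Benjamini-Hochberg adjusted p below 0.05. Of these, 548 were positive (3.07% of tested genes) and 90 negative (0.504%), and 466 (2.61%) were at least 2-fold in size. An unadjusted p under 0.05 was reached by 3835 genes. The count was 1258 with a block for the replicate number, and it depended strongly on single libraries. It was 210, 1319, 407 and 415 without irradiated atm(RNAi) replicate 1, 2, 3 and 4, and 226, 332, 206 and 151 without unirradiated atm(RNAi) replicate 1, 2, 3 and 4. It was 1872, 793, 728 and 399 without irradiated unc-22(RNAi) replicate 1, 2, 3 and 4, and 360, 367, 317 and 319 without unirradiated unc-22(RNAi) replicate 1, 2, 3 and 4.

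**Figure D1:**
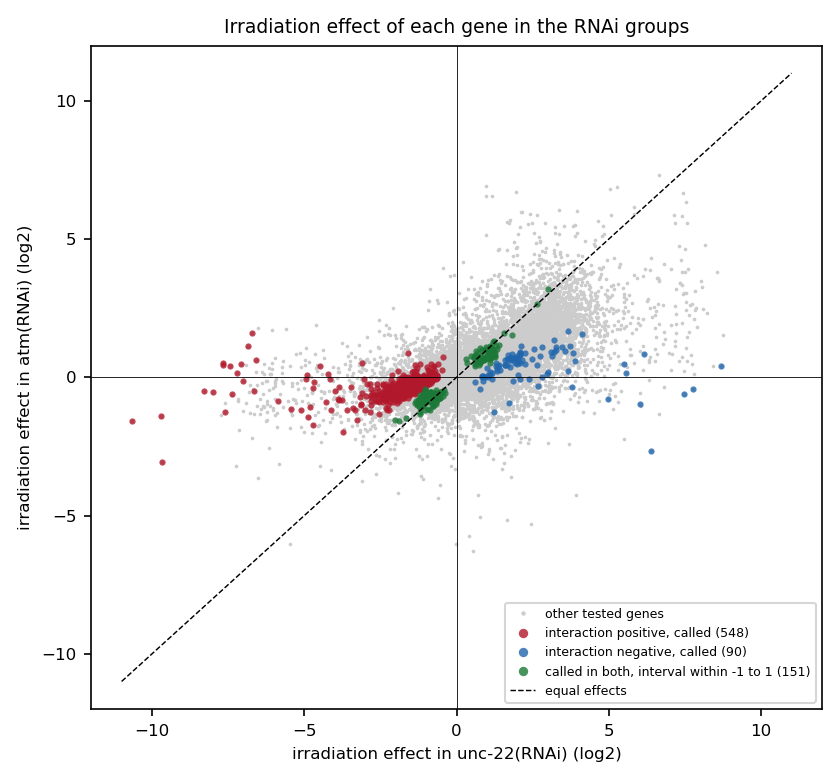
Irradiation effect (log2) of each tested gene in atm(RNAi), on the vertical axis, and in unc-22(RNAi), on the horizontal axis. The 548 genes with a positive and the 90 with a negative called interaction lie near the horizontal line of no effect in atm(RNAi), while 151 genes called in both RNAi groups with an interaction interval within -1 to 1 lie near the dashed line of equal effects; the genes are coloured by tests on the same values.

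The 548 positive genes were mostly well expressed in unirradiated cells and kept most of that level in irradiated atm(RNAi) cells. Their median level was 36.9 CPM (counts scaled to a common library size) in irradiated atm(RNAi) and 45.6 CPM in unirradiated atm(RNAi). It was 17.7 CPM in irradiated unc-22(RNAi), against 49.7 CPM in unirradiated unc-22(RNAi). The median irradiation effect was -0.32 in atm(RNAi) (middle 50% from -0.51 to -0.15) and -1.55 in unc-22(RNAi) (-2.03 to -1.21), against 0.06 and 0.17 over all tested genes. The effect in atm(RNAi) was a median 20.3% of that in unc-22(RNAi). For 62 genes it had the opposite sign, for 298 it was under 25%, for 184 between 25% and 50%, and for 4 at least 50%. These genes were chosen by the interaction, so the medians describe them and test nothing.

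The contrasts that make up the interaction were also tested one by one. Irradiation changed 47.3% of tested genes in unc-22(RNAi). Of the 548 positive genes, 547 fell there, as did 23.5% of tested genes, and 48 fell in atm(RNAi), where 1.15% did. After irradiation 547 were higher in atm(RNAi) than in unc-22(RNAi), where 11.5% of tested genes were, and for 540 the 4 irradiated atm(RNAi) libraries lay above all 4 irradiated unc-22(RNAi) libraries, which held for 10.5% of tested genes. None was called between unirradiated atm(RNAi) and unirradiated unc-22(RNAi), where no tested gene was (0%). Of the 548, 533 differed there by less than 0.5 in log2, as did 13481 of the 17843 tested genes. The estimate for atm(RNAi) minus unc-22(RNAi) in unirradiated cells was below 0 for 446 of the 548, against 8671 of the 17843. Its median over the 548 was -0.10 in log2. The absence of calls in that contrast does not show equal levels. For 1 of the 548, described next, a difference of -1.25 in log2 without overlap was not called. The interaction contains each of these contrasts, so high shares follow in part from the choice of genes. In bulk RNA, fewer cells of one kind and less RNA per cell cannot be told apart.

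The exceptions among the positive genes were 2 genes singled out after their values were seen. The gene dd_Smed_v6_14586_0_1 had 68.8, 46.97, 55.8 and 89.0 CPM in irradiated atm(RNAi) and 41.3, 39.1, 50.5 and 58.9 CPM in unirradiated atm(RNAi). In unc-22(RNAi) it had 61.9, 29.7, 44.5 and 38.9 CPM in irradiated and 129, 111, 85.1 and 128 CPM in unirradiated cells. The RNAi groups overlapped in irradiated cells and did not overlap in unirradiated cells, where the difference of -1.25 in log2 was not called. The interaction was 1.83 ± 0.32 (SE; edgeR adjusted p = 0.00735). The other, dd_Smed_v6_12209_0_1, had 94.95, 57.1, 83.8 and 78.6 CPM in irradiated atm(RNAi), against 48.3, 25.5, 56.1 and 28.1 CPM in irradiated unc-22(RNAi). Its irradiation effects were 0.72 in atm(RNAi) and -0.46 in unc-22(RNAi), neither of them called, and its interaction was 1.18 ± 0.32 (SE; edgeR adjusted p = 0.0469).

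Each library was then placed by the median log2 level of the called genes relative to unirradiated unc-22(RNAi). For the positive genes the irradiated atm(RNAi) libraries were at -0.14, -0.68, -0.45 and -0.45 and the unirradiated atm(RNAi) libraries between -0.13 and -0.06. The irradiated unc-22(RNAi) libraries were at -1.34, -1.90, -1.42 and -1.62, far below all others. Irradiated atm(RNAi) replicate 1 was thus almost level with unirradiated cells. In that library 33.9% of the 548 genes lay below all 4 unirradiated atm(RNAi) libraries, against 89.6%, 74.6% and 76.8% in replicates 2, 3 and 4. In the irradiated unc-22(RNAi) libraries at least 99.8% of them lay below all 4 unirradiated unc-22(RNAi) libraries. Replicate 1 of irradiated unc-22(RNAi), at -1.34, was likewise the nearest of its group to unirradiated cells. Shares over all tested genes were not computed for single libraries. As whole groups, irradiated and unirradiated unc-22(RNAi) did not overlap for 547 of the 548 and for 40.6% of tested genes. For atm(RNAi) this held for 169 of the 548 and for 14.9% of tested genes. The interaction contains the fall in unc-22(RNAi), so the high shares there follow largely from the choice of genes.

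**Figure D2:**
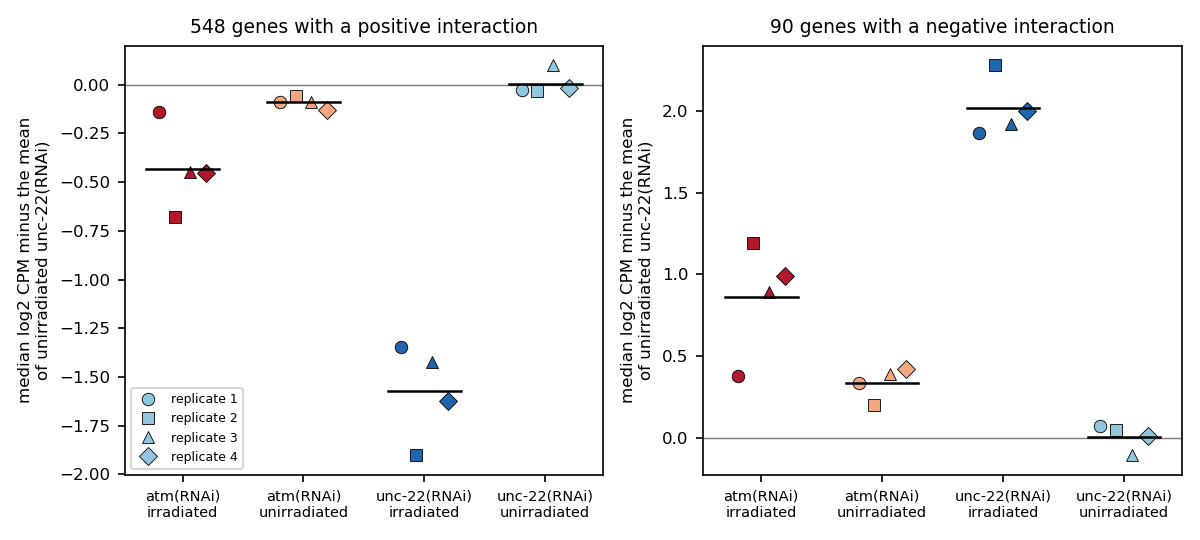
Median log2 CPM of the 548 positive genes (left) and the 90 negative genes (right) in each library, minus the mean of the 4 unirradiated unc-22(RNAi) libraries; symbols are replicates and bars are group means. Irradiated unc-22(RNAi) libraries lie between -1.90 and -1.34 on the left, while irradiated atm(RNAi) libraries lie between -0.68 and -0.14, with replicate 1 nearest to the unirradiated libraries.

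The positive gene with the smallest p, dd_Smed_v6_15107_0_1, was read in every library except those of irradiated controls. It had 5.80, 2.14, 4.38 and 4.84 CPM in irradiated atm(RNAi) and 18.3, 9.67, 13.8 and 9.95 CPM in unirradiated atm(RNAi). No read was found in any of the 4 irradiated unc-22(RNAi) libraries, against 9.44, 12.8, 11.4 and 10.8 CPM in the unirradiated ones. The absent reads were put at a floor of 3 for the whole group, or 0.0623 CPM. The mean of irradiated atm(RNAi) was 68.9-fold above that floor, a ratio that leaves out the spread between the libraries. The gene also fell under atm(RNAi), by 1.59 on the log2 scale (edgeR adjusted p = 0.0212), with no overlap between irradiated and unirradiated libraries. Its edgeR adjusted p for the interaction was 0.000478.

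A similar pattern at a much higher level was seen for dd_Smed_v6_10988_0_1. Irradiated atm(RNAi) libraries had 56.2, 22.6, 36.1 and 44.6 CPM and unirradiated atm(RNAi) libraries 80.2, 88.6, 102 and 85.9 CPM. Irradiated unc-22(RNAi) libraries had 4.96, 0.943, 0.887 and 1.35 CPM, against 77.0, 89.6, 81.3 and 69.9 CPM in unirradiated ones. Under atm(RNAi) every irradiated library was below every unirradiated one, although that fall of 1.16 in log2 missed the threshold (edgeR adjusted p = 0.0568). Under unc-22(RNAi) the gene fell by 5.45 in log2, and the interaction was 4.28 ± 0.52 (SE; edgeR adjusted p = 0.00104). Replicate 1 of irradiated unc-22(RNAi) lay well above the other libraries of its group.

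The gene dd_Smed_v6_11867_0_1 had 117, 60.2, 73.3 and 71.6 CPM in irradiated atm(RNAi) and 104, 106, 86.9 and 87.5 CPM in unirradiated atm(RNAi). It had 18.98, 12.2, 16.9 and 10.6 CPM in irradiated unc-22(RNAi), against 109, 116, 103 and 89.6 CPM in unirradiated unc-22(RNAi). The atm(RNAi) groups overlapped, while the unc-22(RNAi) groups were far apart. Its irradiation effect in atm(RNAi) was -0.26 ± 0.20 (SE; edgeR adjusted p = 0.528), and its interaction was 2.58, with a 95% interval from 1.97 to 3.19.

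At lower levels, dd_Smed_v6_21717_0_1 had 7.09, 1.42, 3.37 and 6.12 CPM in irradiated atm(RNAi), against 10.8, 13.7, 9.58 and 9.42 CPM in unirradiated atm(RNAi). Only 2 reads were counted over the 4 irradiated unc-22(RNAi) libraries, and the unirradiated ones had 10.9, 7.44, 8.999 and 9.72 CPM. The ratio of irradiated atm(RNAi) to irradiated unc-22(RNAi) was 113, with a 95% exact counting interval from 31.0 to 935 that covers counting error only. The gene dd_Smed_v6_31975_0_1 had an estimate above 0 under atm(RNAi). It had 6.85, 4.08, 5.97 and 4.54 CPM in irradiated atm(RNAi) and 3.99, 5.30, 3.86 and 2.86 CPM in unirradiated atm(RNAi). Irradiated unc-22(RNAi) had 0.283, 0.393, 0.0633 and 0.0794 CPM, against 5.44, 4.68, 4.74 and 3.08 CPM in unirradiated unc-22(RNAi). Its irradiation effect in atm(RNAi) was 0.42 ± 0.40 (SE; edgeR adjusted p = 0.629) and its interaction was 4.91 ± 0.66 (SE).

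For dd_Smed_v6_16549_0_1, irradiated atm(RNAi) libraries had 37.6, 13.1, 18.3 and 16.7 CPM and unirradiated atm(RNAi) libraries 40.9, 43.8, 38.3 and 35.9 CPM. Irradiated unc-22(RNAi) libraries had 2.27, 0.707, 2.28 and 2.54 CPM, against 35.3, 36.7, 43.7 and 35.5 CPM in unirradiated ones. Replicate 1 of irradiated atm(RNAi) reached the unirradiated range and the other 3 did not. The remaining 6 positive genes with the smallest p were dd_Smed_v6_6078_0_1, dd_Smed_v6_10440_0_1, dd_Smed_v6_6443_0_1, dd_Smed_v6_12357_0_1, dd_Smed_v6_6237_0_1 and dd_Smed_v6_8684_0_1. Their interactions ran from 1.51 to 1.82, with SE between 0.21 and 0.25 and edgeR adjusted p values between 0.00160 and 0.00213. All 6 fell in unc-22(RNAi), by 1.76 to 2.34 in log2.

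Within this set the genes differed in what remained of the fall under atm(RNAi). The gene dd_Smed_v6_6237_0_1 fell in both RNAi groups, by 0.83 in atm(RNAi) (edgeR adjusted p = 0.00696) and by 2.34 in unc-22(RNAi). Its levels were 47.4, 34.9, 33.9 and 28.1 CPM in irradiated atm(RNAi), 64.1, 68.4, 58.9 and 65.2 CPM in unirradiated atm(RNAi), 12.8, 12.7, 13.6 and 10.95 CPM in irradiated unc-22(RNAi), and 64.5, 60.4, 59.2 and 69.9 CPM in unirradiated unc-22(RNAi). Each irradiated group was below its own unirradiated group without overlap, with irradiated atm(RNAi) in between. By contrast dd_Smed_v6_6078_0_1 had 52.1, 31.6, 39.2 and 39.6 CPM in irradiated atm(RNAi), against 39.7 to 49.1 CPM in unirradiated atm(RNAi). Replicate 1 lay above that range and the other 3 libraries below it, replicates 3 and 4 only just. Its irradiated unc-22(RNAi) libraries were at 13.7 to 15.7 CPM, against 45.6 to 56.6 CPM in the unirradiated ones. The effect in atm(RNAi) was 35.5% of that in unc-22(RNAi) for dd_Smed_v6_6237_0_1 and 7.91% for dd_Smed_v6_6078_0_1; whether the genes differ in this share was not tested.

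**Figure D3:**
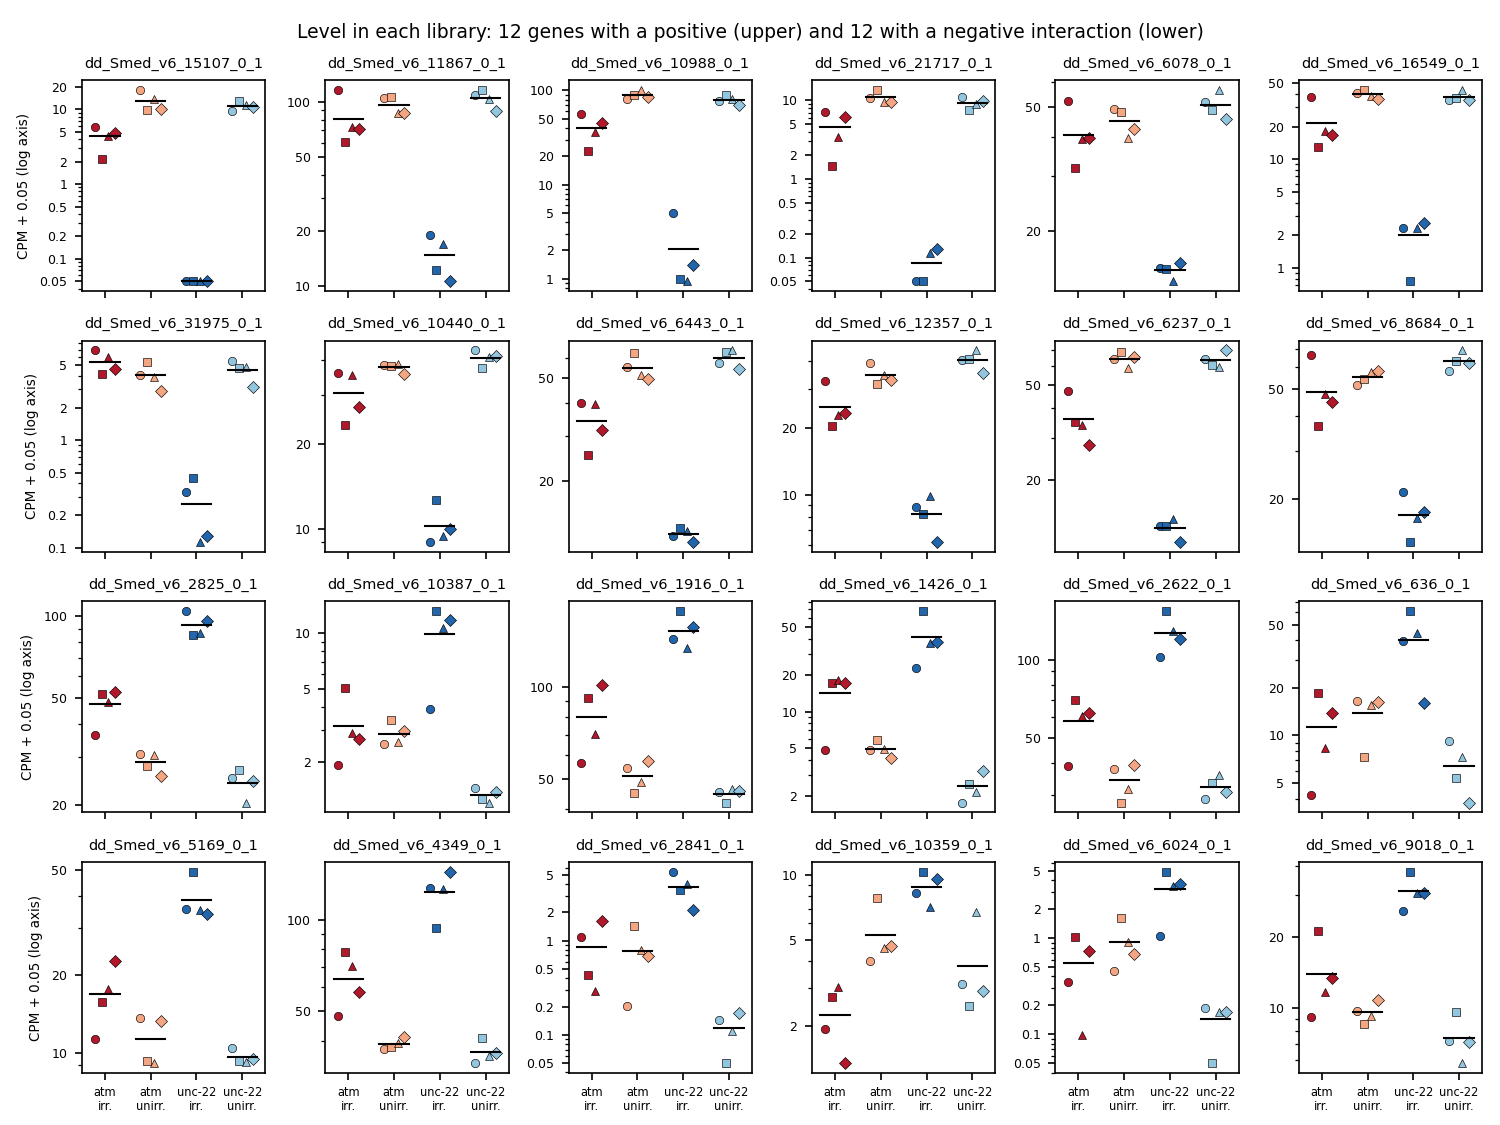
Level of 24 genes in each library, as CPM plus 0.05 on a log axis; each point is a library, symbols are replicates as in the plot of library positions, and bars are group means. In the upper 12 panels irradiated unc-22(RNAi) lies below the other groups in every panel, and in the lower 12 panels its mean is the highest of the 4 groups.

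The largest positive values belonged to genes whose reads nearly vanished in irradiated controls. Among the positive genes, 37 had an interaction of at least 8-fold (3 or more in log2), and 31 of these averaged under 1 CPM in irradiated unc-22(RNAi). Their median level was 2.26 CPM in irradiated and 3.49 CPM in unirradiated atm(RNAi) cells, and 0.0595 CPM in irradiated and 4.04 CPM in unirradiated unc-22(RNAi) cells. For 36 of the 37 the irradiated RNAi groups did not overlap, where 10.5% of tested genes had irradiated atm(RNAi) above irradiated unc-22(RNAi) in this way. Irradiated and unirradiated atm(RNAi) did not overlap for 8 of the 37, a share not far from the 14.9% of all tested genes. No read at all was found in irradiated unc-22(RNAi) for 15 of the positive genes, and 14 of these had reads in all 4 irradiated atm(RNAi) libraries. Their means in irradiated atm(RNAi) were 6.90-fold to 68.9-fold above the floor of 3 reads, and these genes held 34 to 339 reads there. Such ratios leave out the spread between the libraries. The second in level was dd_Smed_v6_52262_0_1, with 187 reads in irradiated and 505 in unirradiated atm(RNAi), and with 0 in irradiated and 484 in unirradiated unc-22(RNAi). Most of the 15 averaged near or under 2 CPM in every group, and the size of their interactions rests on the absence of reads in irradiated unc-22(RNAi).

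The 90 negative genes rose with irradiation in unc-22(RNAi) and changed less in atm(RNAi). Their median level was 15.5 CPM in irradiated and 10.7 CPM in unirradiated atm(RNAi) cells, and 40.6 CPM in irradiated and 8.44 CPM in unirradiated unc-22(RNAi) cells. The median irradiation effect was 0.49 in atm(RNAi) (middle 50% from 0.07 to 0.77) and 2.01 in unc-22(RNAi) (1.58 to 3.13). All 90 were called higher with irradiation in unc-22(RNAi), where 23.8% of tested genes were, and 17 were called higher in atm(RNAi), where 2.42% were. In irradiated cells 76 were lower in atm(RNAi) than in unc-22(RNAi), which held for 3.36% of tested genes, and 14 were not called there. In the libraries of irradiated atm(RNAi) the median shift was 0.38, 1.19, 0.89 and 0.99 in log2 relative to unirradiated unc-22(RNAi), against 1.86, 2.28, 1.92 and 2.00 in irradiated unc-22(RNAi). Replicate 1 of irradiated atm(RNAi) was again the nearest to unirradiated cells, of which the atm(RNAi) libraries were at 0.21 to 0.42.

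The negative gene with the smallest p was dd_Smed_v6_2825_0_1. It had 36.4, 51.6, 48.2 and 52.4 CPM in irradiated atm(RNAi) and 30.8, 27.8, 30.7 and 25.6 CPM in unirradiated atm(RNAi). Irradiated unc-22(RNAi) libraries had 105, 85.3, 86.9 and 95.5 CPM, against 25.1, 26.9, 20.4 and 24.4 CPM in unirradiated ones. The gene rose in both RNAi groups, by 0.71 in log2 in atm(RNAi) (edgeR adjusted p = 0.0124) and by 1.94 in unc-22(RNAi), with no overlap between irradiated and unirradiated libraries in either. Its interaction was -1.23 ± 0.20 (SE; edgeR adjusted p = 0.00481). Of its reads 9.97% came from the opposite strand, a higher share than for the other 23 genes of the panels, and its value rests on the reads of the counted strand.

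Partial rises under atm(RNAi) were also seen for dd_Smed_v6_1916_0_1, dd_Smed_v6_2622_0_1, dd_Smed_v6_4349_0_1 and dd_Smed_v6_1426_0_1. For dd_Smed_v6_1916_0_1 the levels were 56.4, 92.3, 70.4 and 101 CPM in irradiated atm(RNAi), 54.3, 45.1, 48.8 and 57.6 CPM in unirradiated atm(RNAi), 144, 177, 134 and 157 CPM in irradiated unc-22(RNAi), and 45.3, 42.0, 46.6 and 45.9 CPM in unirradiated unc-22(RNAi). Only replicate 1 of irradiated atm(RNAi) lay within the unirradiated atm(RNAi) range. For dd_Smed_v6_1426_0_1, irradiated atm(RNAi) had 4.81 CPM in replicate 1 and 17.3, 18.2 and 17.1 CPM in the other 3, against 4.07 to 5.77 CPM in unirradiated atm(RNAi). It had 23.1 to 68.0 CPM in irradiated unc-22(RNAi), against 1.72 to 3.199 CPM in unirradiated unc-22(RNAi). For this gene unirradiated atm(RNAi) thus lay above unirradiated unc-22(RNAi) without overlap. That difference of 1.03 in log2 was not called and is part of its interaction. For the other genes listed here the unirradiated groups overlapped. All 4 genes rose in each RNAi group (edgeR adjusted p between 0.0220 and 0.0392 in atm(RNAi)), with effects in atm(RNAi) of 36.2% to 40.6% of those in unc-22(RNAi).

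Other negative genes had no rise under atm(RNAi) that passed the test. The gene dd_Smed_v6_10387_0_1 had 1.89, 4.98, 2.84 and 2.62 CPM in irradiated atm(RNAi) and 2.45, 3.33, 2.52 and 2.91 CPM in unirradiated atm(RNAi). It had 3.83, 13.2, 10.6 and 11.7 CPM in irradiated unc-22(RNAi), against 1.40, 1.21, 1.16 and 1.32 CPM in unirradiated unc-22(RNAi). The atm(RNAi) groups overlapped, unirradiated atm(RNAi) lay above unirradiated unc-22(RNAi) without overlap, and irradiated unc-22(RNAi) replicate 1 was the lowest of its group. The gene dd_Smed_v6_10359_0_1 ran in opposite directions in its estimates, which were -1.25 ± 0.38 (SE; edgeR adjusted p = 0.0696) in atm(RNAi) and 1.24 ± 0.38 (SE; edgeR adjusted p = 0.0128) in unc-22(RNAi). It had 1.89, 2.65, 2.99 and 1.28 CPM in irradiated atm(RNAi), 3.94 to 7.80 CPM in unirradiated atm(RNAi), 7.09 to 10.4 CPM in irradiated unc-22(RNAi) and 2.41 to 6.69 CPM in unirradiated unc-22(RNAi). No called gene was called with irradiation in both RNAi groups in opposite directions.

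For the largest negative values the unirradiated groups differed as well. Among the 90 genes, 12 were at least 8-fold in size, all of them at low levels. Their median was 0.664 CPM in irradiated atm(RNAi), 0.693 CPM in unirradiated atm(RNAi), 3.50 CPM in irradiated unc-22(RNAi) and 0.0542 CPM in unirradiated unc-22(RNAi). For 8 of the 12, and for 19 of all 90, the unirradiated RNAi groups did not overlap, which held for 3.08% of all tested genes. Of the 12, 4 had no read in unirradiated unc-22(RNAi). Another of the 12, dd_Smed_v6_2841_0_1, had 1.04, 0.388, 0.241 and 1.58 CPM in irradiated atm(RNAi) and 0.153, 1.40, 0.749 and 0.635 CPM in unirradiated atm(RNAi). It had 5.38, 3.38, 3.93 and 2.06 CPM in irradiated unc-22(RNAi), against 0.0930, 0, 0.0608 and 0.120 CPM in unirradiated unc-22(RNAi), where it held 6 reads in all. Over all 90 negative genes, 87 had a positive estimate for atm(RNAi) minus unc-22(RNAi) in unirradiated cells, with a median of 0.32 in log2, and none was called. That contrast enters the interaction with a minus sign, so the choice of genes favours this direction.

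A further set of genes responded to irradiation with a similar size in both RNAi groups. The 95% interval of the interaction lay within -1 to 1, meaning less than 2-fold either way, for 3194 genes or 17.9% of those tested. Of these, 151 were called with irradiation in both RNAi groups in the same direction, 71 rising and 80 falling. That is 4.73% of the 3194, against 3.4% of all tested genes called in both in the same direction, so the count is near the background share. The requirement of a narrow interval chose genes with equal effects, so this is a description of the set. First among the rising genes by p was dd_Smed_v6_4420_0_1, with 55.2, 55.5, 65.8 and 36.5 CPM in irradiated atm(RNAi) and 5.16 to 6.55 CPM in unirradiated atm(RNAi). It had 30.7, 75.9, 40.8 and 47.5 CPM in irradiated unc-22(RNAi), against 5.32 to 7.02 CPM in unirradiated unc-22(RNAi). It thus rose by 3.18 in atm(RNAi) and 3.01 in unc-22(RNAi) in log2, and the irradiated groups overlapped fully. The interval of its interaction ran from -0.54 to 0.87. Its single transcripts had interactions of -0.65, 1.00, -1.07 and -1.58, with SE of 0.88, 0.35, 1.52 and 1.02, and none was called. The similar size was thus seen for the gene as a sum, and for single transcripts these SE leave it undecided.

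The other rising genes of this kind, dd_Smed_v6_12484_0_1, dd_Smed_v6_1131_0_1 and dd_Smed_v6_6309_0_1, rose by 1.54, 1.18 and 1.01 in atm(RNAi) and by 1.83, 1.41 and 1.34 in unc-22(RNAi), on the log2 scale. Among falling genes dd_Smed_v6_879_0_1 had 101, 70.8, 76.8 and 77.8 CPM in irradiated atm(RNAi) and 230 to 254 CPM in unirradiated atm(RNAi). It had 59.2, 48.2, 80.5 and 58.3 CPM in irradiated unc-22(RNAi), against 233 to 276 CPM in unirradiated unc-22(RNAi). Its interval from 0.03 to 0.93 was the one of the 8 named genes of this set that did not contain 0, although the interaction was not called (edgeR adjusted p = 0.203). The genes dd_Smed_v6_1776_0_1, dd_Smed_v6_9186_0_1 and dd_Smed_v6_4175_0_1 fell by 1.48, 1.59 and 1.05 in atm(RNAi) and by 1.68, 1.91 and 1.10 in unc-22(RNAi), on the log2 scale. The interaction of dd_Smed_v6_4175_0_1 was 0.05 and changed sign with relative log expression factors (-0.06).

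With all 16 libraries, none of the genes with a called irradiation effect in atm(RNAi) had a called interaction toward a larger effect there. This absence depended on the settings. Of the 638 genes called with irradiation in atm(RNAi) (3.58% of tested genes), 24.1% had an interaction of the same sign, 30 of them at least 2-fold, and none passed the threshold. Called genes with an estimate of larger size in atm(RNAi) were dd_Smed_v6_12209_0_1 and dd_Smed_v6_10359_0_1, described above, whose estimates had opposite signs in the RNAi groups and were not called in atm(RNAi). The nearest was dd_Smed_v6_2097_0_1, which fell in atm(RNAi) by 2.46 in log2 (edgeR adjusted p = 0.0432), with an interaction of -3.16 ± 0.88 (SE; edgeR adjusted p = 0.0539). It had 0.0992, 0.970, 0.530 and 0.494 CPM in irradiated atm(RNAi), 2.13 to 3.70 CPM in unirradiated atm(RNAi), 0.567, 2.28, 3.23 and 5.08 CPM in irradiated unc-22(RNAi), and 1.26 to 2.20 CPM in unirradiated unc-22(RNAi). The irradiated unc-22(RNAi) libraries spread below and above both unirradiated groups. The interaction of dd_Smed_v6_2097_0_1 was called in 2 of 16 fits with 1 library left out and in 5 of 15 alternative settings. That of dd_Smed_v6_4477_0_1, described next, was called in 1 of 16 and 0 of 16 of these. Of the genes named by this rule, dd_Smed_v6_4477_0_1 had the highest level, with 436, 282, 359 and 373 CPM in irradiated atm(RNAi), 11.2 to 20.5 CPM in unirradiated atm(RNAi), 321, 106, 277 and 201 CPM in irradiated unc-22(RNAi) and 17.7 to 27.2 CPM in unirradiated unc-22(RNAi). Its interaction was 1.05 ± 0.38 (SE; edgeR adjusted p = 0.121), and the irradiated groups overlapped.

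Further values of this kind were those of dd_Smed_v6_9393_0_1 and dd_Smed_v6_14637_0_1. The first had 4.32, 12.03, 7.99 and 7.36 CPM in irradiated atm(RNAi), 2.75 to 4.10 CPM in unirradiated atm(RNAi), 4.09 to 6.43 CPM in irradiated unc-22(RNAi) and 4.70 to 8.51 CPM in unirradiated unc-22(RNAi), with an interaction of 1.54 ± 0.45 (SE; edgeR adjusted p = 0.0653). It rose in atm(RNAi) (edgeR adjusted p = 0.0400) and was not called in unc-22(RNAi), and the difference between the groups missed the threshold. Its interaction was called in 1 of 16 fits with 1 library left out and in 2 of 16 alternative settings. The second was uneven among replicates, with 0, 9.32, 17.4 and 0.198 CPM in irradiated atm(RNAi), and its interaction had an edgeR adjusted p of 0.119.

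More falling than rising genes were called, and the precision of the test differed between them. Of the 4188 genes that fell with irradiation in unc-22(RNAi), 547 or 13.1% had a called interaction, against 90 or 2.12% of the 4254 genes that rose. The median SE of the interaction was 0.282 for the falling and 0.732 for the rising genes. The median interaction was 0.69 for the falling genes, with medians of -0.27 in atm(RNAi) and -0.97 in unc-22(RNAi), and -0.98 for the rising genes, with medians of 0.99 and 2.28. In the highest quintile of mean level the median SE was 0.245 for falling and 0.263 for rising genes, and 12.6% and 5.53% of them were called. In the lowest quintile it was 1.93 and 1.94, and the smallest called value of that quintile was 6.75 in log2, against 0.611 in the highest quintile. A difference between the RNAi groups of a few fold was therefore not detectable at this depth for genes of the lowest quintile. In the highest quintile the interval lay within -1 to 1 for 52.1% of genes.

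**Figure D4:**
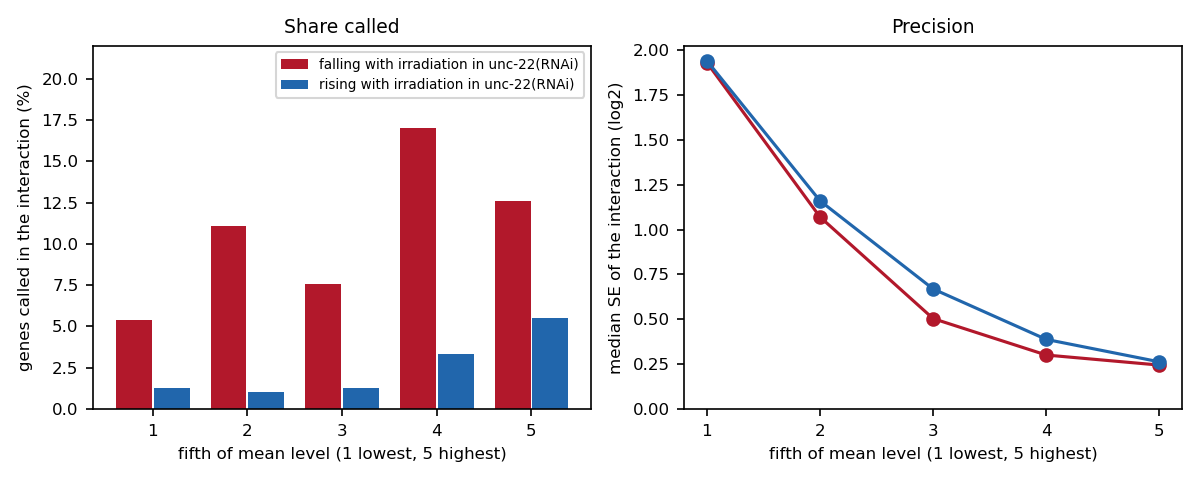
Share of genes called in the interaction (left, in percent) and median SE of the interaction (right, log2) by quintile of mean level over all libraries, for genes that fell (red) and that rose (blue) with irradiation in unc-22(RNAi). The SE drops from 1.93 and 1.94 in the lowest quintile to 0.245 and 0.263 in the highest, and more falling than rising genes are called in each quintile.

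Single transcripts were also counted in place of genes. Of 20177 tested transcripts 639 were called. For 584 of the called genes only 1 transcript was tested, so for these the transcript largely repeats the gene and the similar count adds little. Among the genes called, 50 had at least 2 tested transcripts, with 116 transcripts in all, of which 106 had the sign of their gene and 42 were called. In 40 of the 50 genes every transcript had the sign of the gene, and none of the other 10 transcripts was called. For dd_Smed_v6_1426_0_1 its 3 transcripts had interactions of -2.45, -1.96 and -5.14, of which the first and the last were called.

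A core of genes was called whichever library was left out. In all 16 fits with 1 library left out, 149 of the 638 genes were called, 142 of them positive and 7 negative. All 12 named positive genes belonged to these 149, and of the 12 named negative genes 7 did, among them dd_Smed_v6_2825_0_1, dd_Smed_v6_10387_0_1, dd_Smed_v6_1916_0_1 and dd_Smed_v6_1426_0_1. Against a difference of at least 1.5-fold in place of 0, 45 genes were called by edgeR's glmTreat, 45 positive and 0 negative. An unadjusted p under 0.05 was reached in that test by 1844 genes, and all 12 named positive genes were among the 45. The named genes were chosen by the smallest p with all 16 libraries, and these fits reuse those libraries. Their membership in the 149 and the 45 therefore follows largely from the choice and is no separate support. Without irradiated atm(RNAi) replicate 1, the library nearest to unirradiated cells, 209 of the 210 called genes were among the 638. Without irradiated unc-22(RNAi) replicate 1, which had the fewest reads, 635 of the 638 were among the 1872 called.

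**Figure D5:**
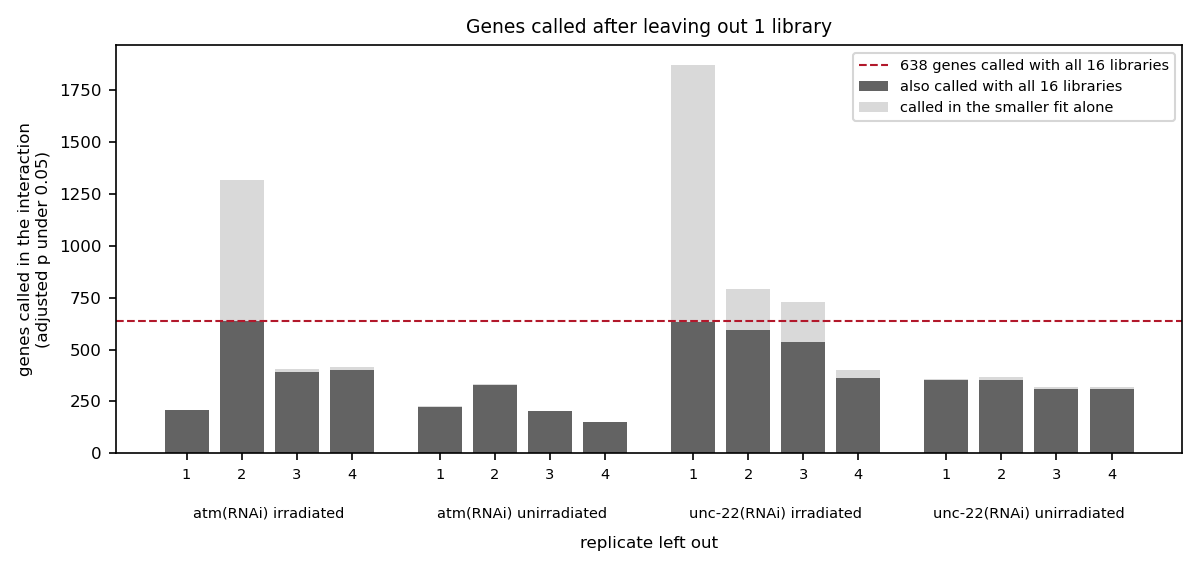
Number of genes called in the interaction after leaving out 1 library, by group and replicate; dark bars count genes also called with all 16 libraries and light bars those called in the smaller fit alone. The lowest count is 151, with unirradiated atm(RNAi) replicate 4 left out, and the highest is 1872, with irradiated unc-22(RNAi) replicate 1 left out, around the 638 of all libraries (dashed line).

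Libraries were sequenced in 2 lanes named in the deposited files, with replicates 1 and 2 of every group in lane 8 and replicates 3 and 4 in lane 7. With 2 libraries per group, 11 genes were called within lane 7 and 0 within lane 8 (edgeR quasi-likelihood; 3221 and 937 at an unadjusted p under 0.05). The median interaction of the 548 positive genes was 1.14 within lane 7 and 1.23 within lane 8, and that of the 90 negative genes was -1.58 and -1.36. The genes were chosen on both lanes together, so medians of one sign in each lane follow in part from the choice. The values of dd_Smed_v6_10988_0_1 were 4.84 within lane 7, where it was called (edgeR adjusted p = 0.00226), and 3.801 within lane 8 (edgeR adjusted p = 0.852). The irradiation effect on the unmapped share differed between the RNAi groups by -1.22 percentage points within lane 7 and by -26.8 within lane 8. With the unmapped share of each library as a covariate, an alternative chosen after seeing the data, 58 genes were called, 56 of them among the 638. Positive calls numbered 56 and negative calls 2, against 548 and 90 without the covariate. All 12 named positive genes and dd_Smed_v6_2825_0_1 were called in that fit, with values from 1.44 to 8.89 and of -1.24, and the other 11 named negative genes were not. The named genes had the smallest p in these same libraries, so their calls in that fit follow largely from the choice.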

How the data were processed

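Raw read counts per gene were deposited by the authors as a matrix of 16 libraries, beside a count file per library in the layout of STAR gene counts. Trim Galore 0.6.5 and STAR 2.7.9 are named in the submitters' processing notes; other settings are not given in the sources used here. Matrix values equalled the per-library counts of one strand, summed over transcripts sharing the first 2 numbers of their identifier (0 of 429328 cells differed). Entries that name no gene stayed out of library sizes, among them unmapped reads (24.8% to 70.9% of a library) and multimapped reads (4.37% to 11.5%), so genes with near-identical copies are uncertain.

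Groups came from the sample titles. Tests used edgeR 4.0.16 in R 4.3.3: filterByExpr kept 17843 genes and removed 8990, TMM scaling, 1 quasi-likelihood fit with a coefficient per group (12 residual degrees of freedom), and Benjamini-Hochberg adjustment over all tested genes with a threshold of 0.05. The SE of a log2 value was its size divided by the root of its F statistic. DESeq2 1.42.0 and limma 3.58.1 were alternatives. Library measures were compared by exact permutation of RNAi labels within irradiation states (4900 regroupings).

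Named genes are the 12 positive and 12 negative called genes of at least 2-fold with the smallest p, 4 rising and 4 falling genes called with irradiation in both RNAi groups whose 95% interaction interval lies within -1 to 1, and up to 4 with a larger effect in atm(RNAi). Members and lists were chosen with earlier results of these data known. The 24 pairs of libraries within groups differed by more than sampling noise (chi-square per degree of freedom at least 9.18). Scripts were tested on simulated data.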

Additional observations from a re-analysis of the deposited data

Results flagged for a closer look

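The difference between the RNAi groups in the irradiation effect was itself tested, and the 638 called genes therefore all differ between groups under the same contrast. The named positive genes had log2 interactions of 9.07 (dd_Smed_v6_15107_0_1), 2.58 (dd_Smed_v6_11867_0_1), 4.28 (dd_Smed_v6_10988_0_1), 6.33 (dd_Smed_v6_21717_0_1), 1.62 (dd_Smed_v6_6078_0_1), 3.39 (dd_Smed_v6_16549_0_1), 4.91 (dd_Smed_v6_31975_0_1), 1.69 (dd_Smed_v6_10440_0_1), 1.59 (dd_Smed_v6_6443_0_1), 1.82 (dd_Smed_v6_12357_0_1), 1.51 (dd_Smed_v6_6237_0_1) and 1.67 (dd_Smed_v6_8684_0_1). The first of these values is a fitted one for a gene with no read in irradiated unc-22(RNAi) and depends on the prior count. The named negative genes had log2 interactions of -1.23 (dd_Smed_v6_2825_0_1), -2.82 (dd_Smed_v6_10387_0_1), -1.13 (dd_Smed_v6_1916_0_1), -2.56 (dd_Smed_v6_1426_0_1), -1.21 (dd_Smed_v6_2622_0_1), -2.97 (dd_Smed_v6_636_0_1), -1.44 (dd_Smed_v6_5169_0_1), -1.03 (dd_Smed_v6_4349_0_1), -5.43 (dd_Smed_v6_2841_0_1), -2.48 (dd_Smed_v6_10359_0_1), -5.78 (dd_Smed_v6_6024_0_1) and -1.54 (dd_Smed_v6_9018_0_1).

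A single library lay far from the other 3 of its group in 11 of 156 groups of 4 values, where chance alone gives about 1 in 20. In irradiated atm(RNAi), replicate 1 had 4.81 CPM of dd_Smed_v6_1426_0_1, against 17.1 to 18.2 CPM in the others, and replicate 2 had 13.9 M counted reads, against 21.1 to 21.8 M. In unirradiated atm(RNAi), replicate 2 had 7.23 CPM of dd_Smed_v6_636_0_1, against 15.5 to 16.4 CPM, and replicate 1 had 70.5 CPM of dd_Smed_v6_1131_0_1, against 82.6 to 83.3 CPM. In irradiated unc-22(RNAi), replicate 1 had 4.96 CPM of dd_Smed_v6_10988_0_1, against 0.887 to 1.35 CPM. Replicate 2 of that group had 0.707 CPM of dd_Smed_v6_16549_0_1 (others 2.27 to 2.54), 49.4 CPM of dd_Smed_v6_5169_0_1 (others 34.0 to 35.6) and 25.8 CPM of dd_Smed_v6_9186_0_1 (others 11.3 to 12.5). In unirradiated unc-22(RNAi), replicate 1 had 10.4 CPM of dd_Smed_v6_5169_0_1 (others 9.24 to 9.44), replicate 3 had 6.69 CPM of dd_Smed_v6_10359_0_1 (others 2.41 to 3.07) and replicate 2 had 0 CPM of dd_Smed_v6_6024_0_1 (others 0.120 to 0.140).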

How the results depend on the processing

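The number of called genes moved with most settings. All 638 genes kept the sign of their interaction in each of the 16 fits with 1 library left out. The genes were chosen on these same libraries, so a kept sign follows largely from the choice. All genes, positive, negative and at least 2-fold genes numbered 1490, 1004, 486 and 826 with DESeq2, 1100, 929, 171 and 771 with limma-voom, and 1189, 927, 262 and 756 with limma-voom and a spread per group. With upper quartile factors 380 genes were called, 290 positive; without a filter on low counts 343, of them 285 positive and 58 negative; without the 10 most abundant genes 360 were positive. The share of positive calls was 85.9% in the fit of all libraries, 67.4% with DESeq2 and 80.5% with relative log expression factors, which shifted the median of all tested genes from -0.01 to -0.115. Lane 7 alone gave 11, 11, 0 and 11 genes and lane 8 alone 0 of each kind. Against 1.5-fold 45 genes were called. Alternatives chosen after seeing the data gave 359 positive genes with every library thinned to the shallowest, 190 negative genes without replicate 1 of both irradiated groups, and 58, 56, 2 and 58 genes with the unmapped share as a covariate; the cause was not tested. Leaving out 1 library gave 151 to 1872 called, 142 to 1585 positive, 9 to 360 negative and 148 to 1233 at least 2-fold genes. It gave differences of -17.6 to -10.8 points for unmapped reads, 7.14 to 10.7 M for counted reads and -987 to -396 for genes at 1 CPM, against -733 with all libraries; without irradiated atm(RNAi) replicate 2 the measures of 10.7 M and -987 had an adjusted exact permutation p of 0.0435.

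No label states a pairing of same-numbered libraries, although the column names of the deposited matrix run in ascending blocks by replicate number. What these blocks stand for is not given, and the fit behind the 638 genes did not include them. Of 24 pairs of them, 7 correlated above 0.1 in their deviations from the group means (median 0.0707, lowest -0.0735). The highest values were between the irradiated groups, at 0.429 for replicate 1 and 0.305 for replicate 2. In all, 11 of 16 libraries correlated best with their own number. With a replicate block 1258 genes were called, 935 positive, 323 negative and 817 at least 2-fold, 631 of them among the 638.

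The sign reversed only for named genes with similar effects in both RNAi groups, none of them called. The interaction of dd_Smed_v6_4175_0_1 was -0.0593 with relative log expression factors, -0.0599 with DESeq2, -0.0592 with the unmapped covariate, -0.0220 with upper quartile factors, -0.0046 without the 10 most abundant genes, -0.0101 without a filter, -0.0396 with a stricter one, -0.171 in lane 7 alone, -0.0020 without replicate 1 of both irradiated groups, and -0.0565 to 0.185 with 1 library left out. Lane 7 alone gave -0.0664 for dd_Smed_v6_1776_0_1 and lane 8 alone 0.0843 for dd_Smed_v6_1131_0_1. Without replicate 1 of both irradiated groups the values were -0.0592 for dd_Smed_v6_4420_0_1, -0.0233 for dd_Smed_v6_1776_0_1 and -0.0139 for dd_Smed_v6_9186_0_1. Depth limits the genes of the lowest quintile of level, where no value under 6.75 in log2 was called.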
